A study of Mus musculus with 46 samples.

Results

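Potassium channel genes of the mouse were followed in striatum and cerebral cortex of wild-type (WT) mice and of R6/2 mice, which model Huntington's disease. The set was every protein-coding gene whose symbol begins with Kcn and whose mean over the 46 libraries was at least 0.5 CPM, the counts of a gene per 1000000 counts of its library. This gave 79 genes of the 43346 in the deposited tables. A further 15 protein-coding Kcn genes lay under that level, so the set held 79 of 94. By class there were 36 voltage-gated genes (Kv), 13 inward rectifiers (Kir), 10 leak channels with a pair of pore domains per subunit (K2P), 7 calcium-activated genes and 13 auxiliary subunits. The calcium-activated class here includes the sodium-activated channels Kcnt1 and Kcnt2 and the sperm channel Kcnu1. Just inside the threshold lay Kcnk5 at 0.539 CPM and Kcnj13 at 0.657 CPM, and just outside lay Kcnq1 at 0.381 CPM and Kcne2 at 0.238 CPM.

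Potassium channels let potassium leave the cell and so set the resting potential, repolarize the action potential and limit firing. In striatal projection neurons, which rest at very negative potentials, inward rectifiers and voltage-gated channels together hold the cell silent until strong cortical input arrives. Astrocytes use the inward rectifier of Kcnj10 to take up potassium released by active neurons, and auxiliary subunits such as the Kcnip and Kcnab proteins decide how many channels reach the membrane and how fast they inactivate.

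The 46 libraries came from 23 mice on a C57BL6/J background, 1 from the right striatum and 1 from the cortex of each animal, all taken at 12 weeks of age. R6/2 mice carried Tg(HDexon1)62Gpb, a transgene with exon 1 of human HTT rather than the whole gene. There were 8 WT mice given vehicle (4 female, 4 male), 7 R6/2 mice given vehicle (4 female, 3 male) and 8 R6/2 mice given CHDI-00340246, an inhibitor of kynurenine 3-monooxygenase (4 female, 4 male). Dosing was oral, 2 times a day, from 4 to 12 weeks of age, at 30 mg/kg for the compound. No WT mouse received the compound, and both R6/2 groups carried the transgene.

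Total counts, in units of 1000000, ran from 30.39 to 36.04 per striatal library and from 31.79 to 37.83 per cortical library. Marker genes separated the tissues: all 10 striatal projection neuron markers were higher in WT striatum and all 8 cortical projection neuron markers higher in WT cortex. Libraries stood apart where over 300 genes lay at least 2-fold from their group's median, a limit set after the data were seen. These were the striatum of female 4 of the treated group (770 genes), the striatum of male 1 of the WT group (362 genes) and the cortex of female 3 of the vehicle group (321 genes). In the first of these the summed striatal projection neuron markers were 835 CPM, against a group median of 2812 CPM. Run tags in the labels (L1 to L8) crossed the striatal groups, but in cortex WT and treated libraries shared none, so run tag and group cannot be told apart in that comparison. Striatal and cortical libraries also shared no tag within the WT group or within the vehicle R6/2 group. Run tag and tissue therefore cannot be told apart where the tissues of these groups are compared. CPM are scaled by TMM, a normalization that sets libraries on a common scale, within each tissue, and FPKM are the deposited length-scaled values, used wherever levels of different genes are compared. Calls rest on edgeR's quasi-likelihood test, with p-values adjusted by Benjamini-Hochberg over all genes tested and a threshold of 0.05.

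Promoter sequence is given for 4 genes on which the results turn, the strongly lowered Kcnh4 and Kcnip2 and the raised Kcnh8 and Kcne1l. Each window is 300 bases of RefSeq sequence on GRCm38.p6, 250 before to 50 after the annotated start, printed 5′ to 3′ on the gene's strand. Capitals mark the GC box, GGGCGG or its reverse complement CCGCCC.
Kcnh4, chr11:100759729-100760028, minus strand: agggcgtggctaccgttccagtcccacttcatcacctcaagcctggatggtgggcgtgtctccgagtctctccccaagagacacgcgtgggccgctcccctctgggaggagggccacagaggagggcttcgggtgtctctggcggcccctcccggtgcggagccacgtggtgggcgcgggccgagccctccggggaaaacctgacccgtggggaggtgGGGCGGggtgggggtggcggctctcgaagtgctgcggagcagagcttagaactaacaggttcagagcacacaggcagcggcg
Kcnip2, chr19:45816014-45816313, minus strand: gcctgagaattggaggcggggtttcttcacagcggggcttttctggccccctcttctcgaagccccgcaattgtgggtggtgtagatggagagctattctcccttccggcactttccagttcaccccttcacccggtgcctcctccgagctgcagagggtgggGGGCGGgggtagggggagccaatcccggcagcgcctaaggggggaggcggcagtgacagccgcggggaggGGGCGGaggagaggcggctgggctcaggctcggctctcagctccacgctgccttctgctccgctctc
Kcnh8, chr17:52602459-52602758, plus strand: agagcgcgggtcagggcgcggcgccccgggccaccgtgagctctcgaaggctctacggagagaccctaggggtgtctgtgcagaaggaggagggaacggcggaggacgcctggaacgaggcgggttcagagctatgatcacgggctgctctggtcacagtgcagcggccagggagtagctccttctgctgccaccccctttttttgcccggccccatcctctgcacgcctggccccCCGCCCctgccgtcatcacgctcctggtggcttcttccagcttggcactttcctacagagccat
Kcne1l, chrX:142306149-142306448, minus strand: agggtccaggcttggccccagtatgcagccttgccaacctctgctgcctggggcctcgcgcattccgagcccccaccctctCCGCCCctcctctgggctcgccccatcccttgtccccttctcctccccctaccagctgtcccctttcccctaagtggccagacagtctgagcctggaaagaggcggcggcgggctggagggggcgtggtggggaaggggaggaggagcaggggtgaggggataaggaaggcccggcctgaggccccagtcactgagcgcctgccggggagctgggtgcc
The windows were GC-rich, at 68.7% for Kcnh4, 67% for Kcnip2, 66% for Kcnh8 and 69.7% for Kcne1l. Kcnip2 held 2 GC boxes and the other windows 1 each, so lowered and raised genes alike carried the motif. Windows were found for 57 of the 79 genes, 80 windows in all. A GC box stood on either strand in 40 of the 80 windows (50%), against 35.7% of all 32851 promoter windows of the same length. The E-box CACGTG was in 7.5% of the potassium channel windows and 7.15% of all windows, and TGACG, read on both strands, in 20% and 20.8%. The full palindrome TGACGTCA, which contains TGACG, was in 0 of the 80 windows and in 1.79% of all windows.

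In WT mice the channel genes together took a similar share of the library in both tissues. The 79 genes held 0.492% to 0.578% of all counts in WT striatum (median 0.565%) and 0.549% to 0.624% in WT cortex (median 0.571%). The make-up differed by class, with ranges that did not overlap. Auxiliary subunits held a median of 35.1% of the summed channel FPKM in WT striatum and 29.1% in WT cortex, whereas Kv genes held 35.4% and 40.7%, and Kir genes 12.6% and 16%. The highest genes of the auxiliary, calcium-activated, Kir and K2P classes in striatum were Kcnip2 (158 ± 12.8 FPKM, SD, n = 8), a calcium-binding partner of the Kcnd channels, Kcnt1 (93.1 ± 6.02 FPKM), a sodium-activated channel, Kcnj4 (75.1 ± 10.1 FPKM), a strong inward rectifier, and Kcnk2 (50.2 ± 5.56 FPKM), a mechano- and heat-sensitive leak channel. In cortex the corresponding genes were Kcnab2 (133 ± 10.1 FPKM, SD, n = 8), a beta subunit of the Kcna channels, Kcnt1 (57.5 ± 7.45 FPKM), Kcnj9 (53.2 ± 3.64 FPKM), a subunit of the channels opened by G proteins, and Kcnk1 (41.2 ± 1.44 FPKM), a weak leak channel.

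**Figure D1:**
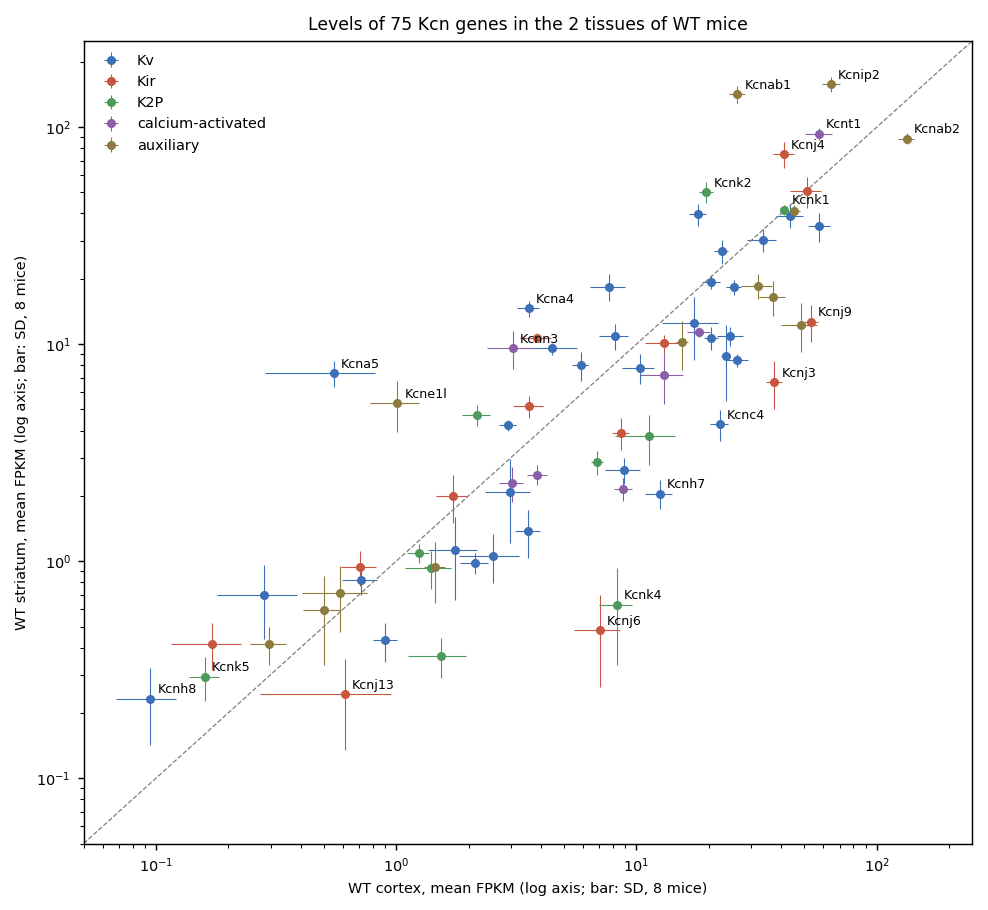
Mean FPKM of 75 Kcn genes in WT cortex (x axis) and WT striatum (y axis), both on log axes, with SD bars over 8 mice and colours for the 5 classes; the dashed line marks equal levels. Kcna5 and Kcnab1 lie far above the line, and Kcnj6 and Kcnk4 far below it.

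Between the tissues of the same WT mice, 26 channel genes were higher in striatum and 43 higher in cortex. Among all genes, 31.2% were higher in striatum and 31.6% in cortex, in a fit with the animal as a block. WT striatal and cortical libraries shared no run tag, so tissue and run tag cannot be told apart here. The largest striatal excess was that of Kcna5, a Kv pore subunit, at a log2 difference of 3.77 ± 0.22 (SE, edgeR adjusted p 1.79e-08, n = 8 mice). Next came Kcnab1 at 2.41, Kcne1l, a small single-span auxiliary subunit, at 2.37, Kcna4, a rapidly inactivating Kv pore subunit, at 2.00, and Kcnn3, a small-conductance calcium-activated channel, at 1.63. Of the 6 Kcna genes 2 were higher in striatum and 2 in cortex, and of the 3 Kcnab genes 1 was higher in striatum and 2 in cortex.

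On the cortical side the largest log2 differences were those of Kcnj6 (-3.80) and Kcnj3 (-2.57), subunits of the G protein-gated channel, and Kcnk4 (-3.76), a mechanosensitive leak channel. Kcnh7, an Erg-family Kv gene, stood at -2.67 and Kcnc4, a fast Kv gene, at -2.41. Kcnj9, the third abundant subunit of the G protein-gated channel, was also higher in cortex, at -2.11 ± 0.10 (SE, edgeR adjusted p 2.37e-09). For low striatal genes such as Kcnj6 (0.246 to 2.00 CPM in WT striatum), cortical markers in the same libraries bear on the level. The summed cortical projection neuron markers reached 160 to 231 CPM in WT striatum and 1981 to 2230 CPM in WT cortex. Lamp5 alone had a mean of 96 CPM in WT striatum. The part of these markers in the levels of the channel genes was not tested.

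In R6/2 mice given vehicle most channel genes were lower than in WT mice, in both tissues, and every class held lower calls. In striatum 49 of the 79 were lower and 1, Kcnh8, was higher, against 24.5% lower and 25.8% higher among all 17394 genes tested. In cortex 47 were lower and 4 higher, against 22.6% and 21.5% of 17484 genes. The median log2 fold change of the 79 was -0.40 in striatum and -0.37 in cortex, and that of all genes was 0.00 in both. The share of counts held by the 79 genes was 0.378% to 0.420% in vehicle R6/2 striatum and 0.410% to 0.461% in vehicle R6/2 cortex, below every WT library of the same tissue. In bulk tissue fewer cells of a type and less RNA per cell cannot be told apart.

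By class, the lower calls in striatum were 21 of 36 Kv, 9 of 13 Kir, 7 of 10 K2P, 3 of 7 calcium-activated and 9 of 13 auxiliary genes. In cortex they were 19, 9, 6, 4 and 9. The median log2 fold change in striatum was -0.76 for K2P, -0.55 for auxiliary, -0.40 for Kir, -0.34 for Kv and -0.08 for calcium-activated genes. In cortex it was -0.52 for K2P, -0.45 for auxiliary, -0.44 for Kir, -0.34 for calcium-activated and -0.28 for Kv genes. The higher calls were 1 Kv gene in striatum and 2 Kv and 2 auxiliary genes in cortex. All members of a class were measured: each of the 79 genes passed the low-count filter in every fit. WT and vehicle R6/2 animals did not overlap for 25 of the 79 genes in striatum, against 21.8% of all genes tested, and for 31 in cortex, against 16.2%. The estimate was at or below -1 on the log2 scale for 14 genes in striatum, against 4.27% of all genes, and for 9 in cortex, against 3.87%. On log2(FPKM + 0.1) and log2(FPKM + 1) with limma, lower calls lost in striatum included those of Kcna4, Kcnd2, Kcng2, Kcnip4, Kcnj5, Kcnj8, Kcnj9, Kcnj12, Kcnj16, Kcnk3 and Kcns2. In cortex they included those of Kcna6, Kcnb2, Kcnh2, Kcnj3, Kcnj12, Kcnmb4 and Kcnt1, and without the filter on low values also Kcna5 in striatum and Kcnj14 in cortex.

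**Figure D2:**
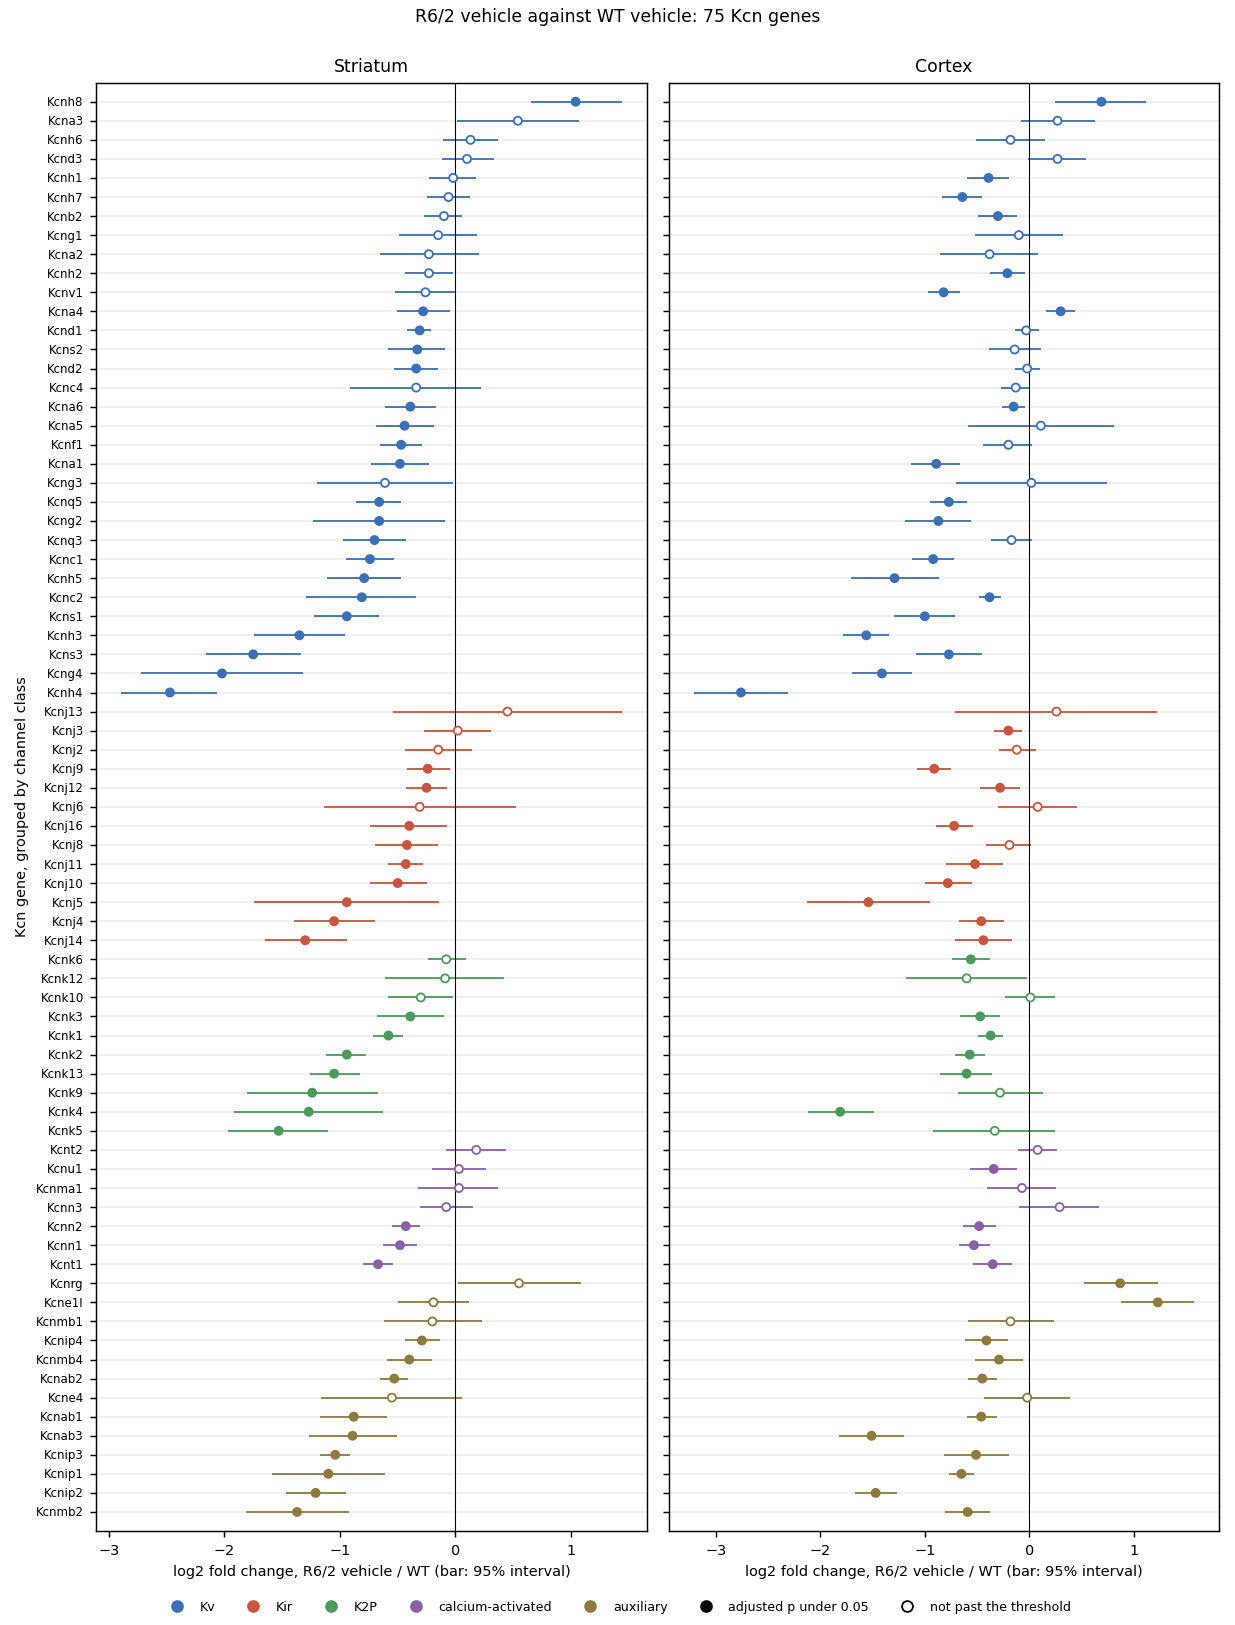
Log2 fold change of R6/2 vehicle over WT for each of 75 Kcn genes in striatum and cortex, with 95% intervals, grouped and coloured by class; filled points passed an adjusted p of 0.05. Most filled points lie left of 0, with Kcnh4 furthest left in both tissues and Kcnh8 the filled point right of 0 in striatum.

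The most lowered channel gene in both tissues was Kcnh4 (ENSMUSG00000035355, chromosome 11, 100740376 to 100759942, minus strand, mm10), an Elk-type Kv gene of forebrain neurons. In striatum it ranged from 60.1 to 88.6 CPM in WT mice (median 71.2 CPM), from 10.7 to 16.7 CPM in vehicle R6/2 mice (median 13.4 CPM) and from 3.40 to 14.2 CPM in treated R6/2 mice (median 10.6 CPM). In cortex the medians were 28.1, 4.01 and 4.02 CPM, with every WT library at 25.4 CPM or above and every R6/2 library at 8.62 CPM or below. No R6/2 library of either tissue reached the range of WT. The log2 fold change of vehicle R6/2 over WT was -2.47 ± 0.20 in striatum (SE, edgeR adjusted p 1.29e-09) and -2.76 ± 0.22 in cortex (edgeR adjusted p 8.15e-10).

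The 2 other Elk genes went apart. Kcnh3 (ENSMUSG00000037579, chromosome 15, 99224861 to 99242817, plus strand), whose loss in mice raises neuronal excitability, had a median of 147 CPM in WT striatum and 55.0 CPM in vehicle R6/2 striatum. Its cortical medians were 157 and 58.0 CPM, and WT and vehicle libraries did not overlap in either tissue. The fall was -1.35 ± 0.19 in striatum (SE, edgeR adjusted p 3.14e-06) and -1.56 ± 0.11 in cortex (edgeR adjusted p 7.2e-11). Kcnh8 (ENSMUSG00000035580, chromosome 17, 52602709 to 52979194, plus strand) was scarce and rose. Its striatal range was 0.575 to 1.55 CPM in WT mice, 1.66 to 2.51 CPM in vehicle R6/2 mice and 1.49 to 3.44 CPM in treated R6/2 mice. WT and vehicle mice did not overlap in striatum, and in cortex they did, with medians of 0.376 and 0.609 CPM. The rise was 1.04 ± 0.19 in striatum (SE, edgeR adjusted p 9.51e-05) and 0.69 ± 0.21 in cortex (edgeR adjusted p 0.01), and the cortical call was lost on the log2(FPKM + 0.1) scale with limma (adjusted p 0.0569).

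Among the other Kcnh genes, Kcnh5, an Eag-type channel, was lower in striatum (-0.79 ± 0.15) and cortex (-1.29 ± 0.21). The Eag-type Kcnh1 and the Erg-type Kcnh7 were called lower in cortex, where Kcnh7 went from a median of 166 to 110 CPM (-0.64 ± 0.09, edgeR adjusted p 7.91e-06), and in striatum Kcnh7 was near 0 (-0.06 ± 0.09, adjusted p 0.627). The Erg-type Kcnh2 was just past the threshold in cortex (-0.21 ± 0.08, edgeR adjusted p 0.0461), a call lost in 10 of the 15 fits that left out 1 library. Kcnh6 was called in neither tissue. In all, 3 of 8 Kcnh genes were lower in striatum and 6 of 8 in cortex.

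The Kcna genes, low-threshold channels of axons and terminals, differed among themselves. Kcna1 had medians of 292 and 205 CPM in WT and vehicle R6/2 striatum and of 308 and 168 CPM in cortex. The cortical libraries did not overlap and the striatal ones did. The log2 fold changes were -0.48 ± 0.12 in striatum (SE, edgeR adjusted p 0.00217) and -0.89 ± 0.11 in cortex (edgeR adjusted p 9.74e-07). Kcna4 moved oppositely in the tissues: WT and vehicle medians were 71.9 and 59.7 CPM in striatum, a fold change of -0.28 ± 0.11 (edgeR adjusted p 0.0402), and 17.5 and 21.2 CPM in cortex, a fold change of 0.30 ± 0.07 (edgeR adjusted p 0.0011). Its striatal call was lost on the FPKM scale and in 11 of the 15 fits that left out 1 library. Kcna2 and Kcna3 were called in neither tissue, and 4 of 6 Kcna genes were lower in striatum against 2 of 6 in cortex.

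All 3 Kcnab genes, the beta subunits that join Kcna pores, were lower in both tissues. Kcnab1 (chromosome 3, 65109384 to 65378223, plus strand) ranged from 395 to 562 CPM in WT striatum and from 230 to 298 CPM in vehicle R6/2 striatum, without overlap. Its log2 fold change was -0.88 ± 0.14 in striatum (SE, edgeR adjusted p 1.67e-05) and -0.46 ± 0.07 in cortex (edgeR adjusted p 1.51e-05). Kcnab3 had cortical ranges of 87.6 to 150 CPM in WT and 31.2 to 44.5 CPM in vehicle R6/2 mice, again without overlap. It fell by 0.89 in striatum and by 1.51 ± 0.15 in cortex on the log2 scale (SE, edgeR adjusted p 3.23e-08). Kcnab2 fell by 0.53 in striatum and 0.45 in cortex.

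The Kcnip genes encode the calcium-binding subunits of the Kcnd channels, which carry the transient A-type current of dendrites, and all 4 were lower in both tissues in edgeR's test, the striatal call of Kcnip4 being lost on both FPKM scales. Kcnip2 (ENSMUSG00000025221, chromosome 19, 45791839 to 45816061, minus strand) ranged from 366 to 473 CPM in WT striatum, from 166 to 196 CPM with vehicle and from 81.0 to 204 CPM with the compound. In cortex the ranges were 142 to 184, 44.1 to 76.9 and 49.4 to 74.5 CPM. R6/2 and WT mice did not overlap in either tissue, and the log2 fold changes with vehicle were -1.21 ± 0.13 (SE, edgeR adjusted p 6.21e-08) and -1.47 ± 0.10 (edgeR adjusted p 6.08e-11). Kcnip3, which also acts as a transcriptional repressor, had the smallest adjusted p of the set in striatum: 108 to 134 CPM in WT and 52.0 to 64.5 CPM in vehicle mice, a log2 fold change of -1.04 ± 0.06 (edgeR adjusted p 1.77e-11). In cortex its vehicle range of 60.1 to 136 CPM overlapped that of WT, 117 to 139 CPM, and the change was -0.51 ± 0.15 (edgeR adjusted p 0.00862). That cortical call was lost without the sex covariate (adjusted p 0.0629).

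The Kcnd pores had estimates closer to 0 than those of Kcnip1, Kcnip2 and Kcnip3 in both tissues. In striatum Kcnip4 (-0.29) lay slightly nearer 0 than Kcnd1 and Kcnd2. A difference between genes was not tested. Kcnd2, the main dendritic A-type pore, was at a median of 224 CPM in WT and 170 CPM in vehicle striatum, a log2 fold change of -0.34 ± 0.09 (SE, edgeR adjusted p 0.00398). In cortex it was at 97.2 and 92.7 CPM, with a change of -0.02 ± 0.06 (adjusted p 0.808). Kcnd1 behaved likewise (-0.31 ± 0.05 in striatum, -0.03 ± 0.06 in cortex), and Kcnd3 was called in neither tissue. Kcnip1 and Kcnip4 complete the family, with striatal changes of -1.10 ± 0.24 and -0.29 ± 0.08 and cortical changes of -0.65 ± 0.06 and -0.41 ± 0.10.

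**Figure D3:**
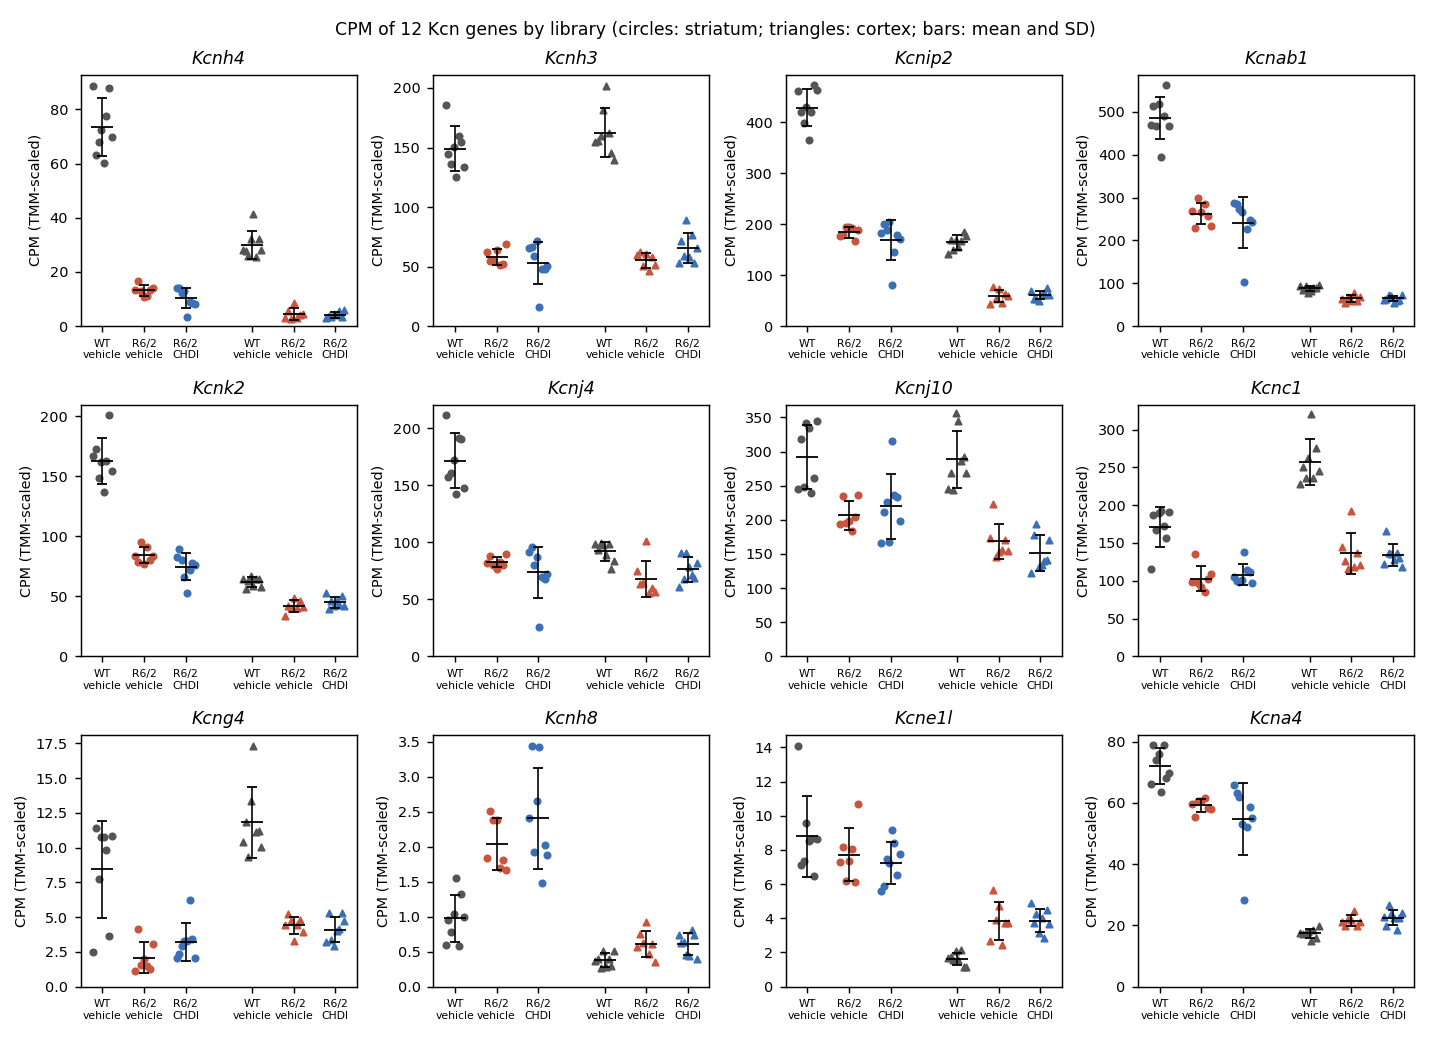
CPM of 12 Kcn genes in each library, with circles for striatum, triangles for cortex and bars for the mean and SD of the 3 groups; every axis starts at 0. Kcnh4 and Kcnip2 show WT libraries above all R6/2 libraries in both tissues, and vehicle and treated R6/2 libraries overlap.

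The Kcnc genes allow fast spiking. Kcnc1 had medians of 179 and 98.9 CPM in WT and vehicle striatum and of 248 and 126 CPM in cortex. WT and vehicle libraries overlapped in striatum (115 to 192 against 85.7 to 136 CPM) and did not in cortex. Its log2 fold change was -0.74 ± 0.10 in striatum (SE, edgeR adjusted p 2.38e-06) and -0.92 ± 0.10 in cortex (edgeR adjusted p 7.31e-08). Kcnc2 fell by 0.81 ± 0.23 and 0.38 ± 0.05 on the log2 scale, whereas Kcnc4 was called in neither tissue.

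The silent Kv subunits, which form no channel alone but modify Kcnb pores, included the steepest striatal falls after Kcnh4. Kcng4 ranged from 2.50 to 11.4 CPM in WT striatum (median 10.3 CPM) and from 1.12 to 4.15 CPM in vehicle striatum (median 1.52 CPM), so that the ranges overlapped. Its log2 fold change was -2.02 ± 0.34 in striatum (SE, edgeR adjusted p 3.35e-05) and -1.41 ± 0.14 in cortex (edgeR adjusted p 3.09e-08). Kcns3 had medians of 4.41 and 1.34 CPM in striatum and of 10.9 and 6.30 CPM in cortex, and fell by 1.75 ± 0.20 (edgeR adjusted p 1.62e-07) and 0.77 ± 0.15 (edgeR adjusted p 0.000228). Kcns1 fell by 0.94 ± 0.14 and 1.0 ± 0.14, and Kcnv1 by 0.82 ± 0.08 in cortex, with a striatal value of -0.26 ± 0.13 (adjusted p 0.0899). Kcng2 was lower in cortex (-0.87 ± 0.15), and its striatal call (-0.66 ± 0.27, edgeR adjusted p 0.049) was lost in 13 of the 15 fits that left out 1 library, at adjusted p of 0.0537 to 0.0942. The pore gene Kcnb2 was called lower in cortex, at -0.30 ± 0.09.

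Markers of interneurons moved with these genes. Pvalb, which marks fast-spiking interneurons, ranged from 28.1 to 75.0 CPM in WT striatum and from 14.7 to 35.4 CPM in vehicle striatum, and all 7 listed interneuron markers were lower there. In cortex 5 of 7 were lower. The 7 listed genes summed to 975 to 1269 CPM in WT and 664 to 876 CPM in vehicle striatum, and the medians of the sum were 722 and 307 CPM in cortex. Most of this sum was Gad1 in both tissues, so it mainly follows that gene. Striatal projection neurons also express Gad1, so in striatum neither Gad1 nor the sum measures interneurons alone. In striatum Gad1 had the smallest fall of the 7, a log2 fold change of -0.42, against a median of -1.48 for the list. In cortex Gad1 and the list median both stood at -1.14. The part of these markers in the falls of Kcnc1, Kcnc2, Kcng4 and Kcns3 was not tested.

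The Kcnq genes encode subunits of the M-current, which damps repetitive firing. Kcnq3 went from a median of 330 CPM in WT to 197 CPM in vehicle striatum, with ranges of 234 to 370 and 179 to 218 CPM that did not overlap. Its log2 fold change was -0.70 ± 0.13 in striatum (SE, edgeR adjusted p 0.000124) and -0.17 ± 0.10 in cortex, where it was not called (adjusted p 0.169). Kcnq5 fell in both tissues, by 0.66 ± 0.09 and 0.77 ± 0.08.

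The strong inward rectifiers of neurons measured here include Kcnj4, Kcnj2, Kcnj12 and Kcnj14, and differences between these genes were not tested. Kcnj4 (chromosome 15, 79483714 to 79505241, minus strand) ranged from 142 to 211 CPM in WT striatum and from 76.7 to 89.3 CPM in vehicle striatum, without overlap. It fell by 1.05 ± 0.17 in striatum (SE, edgeR adjusted p 2.18e-05) and by 0.46 ± 0.10 in cortex (edgeR adjusted p 0.000959). Kcnj2, whose striatal medians were 60.5 and 57.0 CPM, was called in neither tissue (-0.15 ± 0.14 and -0.12 ± 0.08). Kcnj12 fell by 0.25 in striatum and 0.28 in cortex. Kcnj14, at medians of 2.55 and 1.08 CPM, fell by 1.30 ± 0.17 in striatum (edgeR adjusted p 1.68e-06) and by 0.44 ± 0.13 in cortex. The striatal projection neuron markers moved in the same libraries: 9 of 10 were lower in striatum, and their sum was 6731 to 8958 CPM in WT and 2805 to 3215 CPM in vehicle mice. Their part in these falls was not tested.

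Kcnj10 and Kcnj16 encode the rectifier subunits of astrocytes. Kcnj10 (chromosome 1, 172341210 to 172374085, plus strand) ranged from 239 to 345 CPM in WT and from 184 to 237 CPM in vehicle striatum, and from 244 to 357 CPM in WT and 146 to 223 CPM in vehicle cortex. The groups did not overlap in either tissue, and the log2 fold changes were -0.50 ± 0.12 (SE, edgeR adjusted p 0.00126) and -0.78 ± 0.11 (edgeR adjusted p 4.78e-06). Kcnj16 fell by 0.40 ± 0.16 in striatum (edgeR adjusted p 0.0408), a call lost under the replicate block and in 8 of the 15 leave-outs, and by 0.72 ± 0.08 in cortex (edgeR adjusted p 3.45e-07). Of 6 listed astrocyte markers 5 were lower in striatum and 4 in cortex, with sums of 4953 to 6152 against 2777 to 3721 CPM in striatum and 5021 to 7289 against 2927 to 4294 CPM in cortex. Most of this sum was Slc1a2 in both tissues, so it mainly follows that gene. Its log2 fold changes were -0.96 in striatum and -0.80 in cortex, against a list median of -0.57 in each. Gfap was called in neither tissue. The part of these markers in the falls of both subunits was not tested.

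Of the G protein-gated subunits, Kcnj9 fell from a median of 208 to 112 CPM in cortex without overlap, a log2 fold change of -0.91 ± 0.08 (SE, edgeR adjusted p 2.76e-09), and by 0.24 ± 0.09 in striatum. Kcnj3 was called lower in cortex (-0.20 ± 0.07, edgeR adjusted p 0.0147) and Kcnj6 was called in neither tissue. Kcnj5 was scarce, at medians of 0.837 and 0.249 CPM in WT and vehicle cortex (-1.54 ± 0.28, edgeR adjusted p 0.000112), and its striatal call (-0.94 ± 0.39, edgeR adjusted p 0.0481) was lost in 10 of the 15 leave-outs, at adjusted p of 0.0548 to 0.0934. Of the pores of ATP-sensitive channels, Kcnj11 fell in both tissues (-0.43 ± 0.07 and -0.52 ± 0.13), as did Abcc8, its sulfonylurea receptor partner (-0.90 and -0.89). Abcc9, the other listed sulfonylurea receptor gene, was called in neither tissue (-0.11 and -0.02). Kcnj8, the pore of pericytes and smooth muscle, fell in striatum (-0.42 ± 0.13, edgeR adjusted p 0.0107) and had -0.19 ± 0.10 in cortex (adjusted p 0.138). The 6 listed pericyte and endothelial markers were all lower in striatum (median -0.30) and 0 of 6 changed in cortex, and their part was not tested. Kcnj13, a channel of the choroid plexus, was called in neither tissue, nor was any of the 4 choroid plexus markers.

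The K2P genes had the lowest class median in both tissues. Kcnk2 (chromosome 1, 189207930 to 189402273, minus strand) ranged from 137 to 201 CPM in WT, 77.0 to 95.4 CPM in vehicle and 52.7 to 89.4 CPM in treated striatum. WT mice lay above all R6/2 mice, and the log2 fold change with vehicle was -0.94 ± 0.09 (SE, edgeR adjusted p 6.96e-09), against -0.57 ± 0.07 in cortex (edgeR adjusted p 7.24e-07). Kcnk1 fell by 0.58 ± 0.06 and 0.37 ± 0.06. Kcnk4, close kin of Kcnk2, was at 12.0 to 20 CPM in WT and 3.64 to 5.52 CPM in vehicle cortex, a fall of 1.81 ± 0.15 (edgeR adjusted p 2.24e-09), and fell by 1.27 ± 0.31 in striatum, where it was near 1 CPM. Kcnk10, the third of that subfamily, was called in neither tissue. Kcnk13, which in mice is a channel of microglia, ranged from 13.2 to 17.6 CPM in WT and from 6.41 to 8.21 CPM in vehicle striatum, without overlap, and fell by 1.05 ± 0.10 (edgeR adjusted p 2.09e-08) and in cortex by 0.60 ± 0.12 (edgeR adjusted p 0.000225). Of 5 microglial markers 4 were lower in striatum at a median of -0.20, and 0 of 5 in cortex at a median of -0.08, and their part was not tested.

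The acid-sensitive K2P genes are Kcnk3, Kcnk5 and Kcnk9. Kcnk9 had medians of 5.17 and 2.15 CPM in WT and vehicle striatum (-1.24 ± 0.27, edgeR adjusted p 0.000612) and of 14.1 and 12.9 CPM in cortex (-0.28 ± 0.20, adjusted p 0.268). Kcnk5 ranged from 0.645 to 1.40 CPM in WT and from 0.192 to 0.582 CPM in vehicle striatum without overlap, a fall of 1.53 ± 0.21 (SE, edgeR adjusted p 2.58e-06), and had -0.33 ± 0.28 in cortex. Kcnk3 fell in both tissues, by 0.39 ± 0.14 and 0.47 ± 0.09. The weak leak channel Kcnk6 had -0.08 ± 0.08 in striatum and fell in cortex, at -0.56 ± 0.09 (edgeR adjusted p 1.37e-05).

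Among the calcium-activated class the large-conductance pore Kcnma1 was called in neither tissue (0.03 ± 0.17 and -0.07 ± 0.16), while 2 of its 3 measured beta subunits were lower in both. Kcnmb2 had medians of 2.72 and 0.905 CPM in WT and vehicle striatum (-1.37 ± 0.21, edgeR adjusted p 1.44e-05) and fell by 0.59 ± 0.10 in cortex. Kcnmb4, the neuronal beta subunit, fell by 0.40 ± 0.09 and 0.29 ± 0.11, and its cortical call was lost in 10 of the 15 leave-outs. The small-conductance channels Kcnn1 (-0.48 and -0.53) and Kcnn2 (-0.43 and -0.48) fell in both tissues and Kcnn3 was called in neither. Kcnt1 ranged from 305 to 362 CPM in WT and from 195 to 226 CPM in vehicle striatum, without overlap, and fell by 0.67 ± 0.06 (SE, edgeR adjusted p 1.68e-08) and in cortex by 0.35 ± 0.09. Its relative Kcnt2 was called in neither tissue.

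The genes that were higher were few and mostly scarce. Besides Kcnh8, and Kcna4 in cortex, they were Kcne1l and Kcnrg. Kcne1l (ENSMUSG00000090122, chromosome X, 142304752 to 142306294, minus strand) ranged from 1.14 to 2.12 CPM in WT cortex, from 2.40 to 5.64 CPM with vehicle and from 2.84 to 4.88 CPM with the compound. No R6/2 library overlapped WT, and the rise with vehicle was 1.23 ± 0.17 (SE, edgeR adjusted p 3.52e-06). In striatum, where WT mice had more of it than in cortex, its change was -0.19 ± 0.15 (adjusted p 0.309). Kcnrg, whose human protein interferes with the assembly of Kv channels, had cortical medians of 0.427 and 0.774 CPM (0.87 ± 0.17, edgeR adjusted p 0.00022) and a striatal change of 0.55 ± 0.26 (adjusted p 0.0805).

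Lower calls were made in both tissues for 39 channel genes, 79.6% of the striatal and 83% of the cortical list. Among the 16964 genes tested in both tissues 2460 were lower in both, 59.8% of the striatal and 64.9% of the cortical list. Both sets of calls come from the same mice. A call in 1 tissue alone does not show a difference, so the difference itself was tested with both tissues in 1 fit, blocked by animal. Within the WT and vehicle groups the tissues shared no run tag, so run tag cannot be told apart from tissue in this test. The R6/2 effect was more negative in striatum for 18 channel genes and more positive for 5, against 8.74% and 7.06% of all 18122 genes tested. By class the more negative calls were 7 Kv, 2 Kir, 5 K2P, 1 calcium-activated and 3 auxiliary genes, and the more positive ones 3 Kv, 1 Kir and 1 K2P.

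The largest difference was that of Kcne1l, at -1.41 ± 0.16 (striatum minus cortex, SE, edgeR adjusted p 1.11e-06). Genes lowered more in striatum were Kcnk5 (-1.18 ± 0.33), Kcnk9 (-1.0 ± 0.30), Kcns3 (-0.99 ± 0.30), Kcnj14 (-0.88 ± 0.21), Kcnmb2 (-0.76 ± 0.25), Kcnj4 (-0.61 ± 0.18) and Kcnip3 (-0.59 ± 0.16). Kcna4 stood at -0.61 ± 0.15 (edgeR adjusted p 0.0054). Kcnq3, Kcnk13, Kcnk2, Kcnt1 and Kcnk1 also had the larger fall in striatum. The 5 with the larger fall in cortex were Kcnj9 at 0.66 ± 0.12 (edgeR adjusted p 0.000342), Kcnh7 at 0.57 ± 0.11, Kcnv1 at 0.52 ± 0.12, Kcnk6 at 0.46 ± 0.10 and Kcnh1 at 0.35 ± 0.11. The call of Kcnh1 (edgeR adjusted p 0.03) was lost in 7 of the 15 leave-outs. Cortical projection neuron markers moved in the same cortical libraries: 6 of 8 were lower and 1 higher with vehicle, at a median log2 fold change of -0.45. Their sum was 1981 to 2230 CPM in WT and 1320 to 1757 CPM in vehicle cortex, where Slc17a7 alone had means of 1253 and 977 CPM. The part of these markers in the cortical falls of Kcnj9, Kcnh7 and Kcnv1 was not tested. The most lowered genes Kcnh4 (0.33 ± 0.19, adjusted p 0.265), Kcnh3 (0.17 ± 0.18, adjusted p 0.58) and Kcnip2 (0.26 ± 0.16, adjusted p 0.305) were not called different between tissues. Some of these calls lay near the threshold and were lost when 1 animal was left out. In the leave-outs that lost the call, estimates were -0.52 for Kcnj4 and -0.88 to -0.94 for Kcnk9. They were -0.84 to -0.92 for Kcns3 and -0.69 to -0.77 for Kcnmb2. The call of Kcnj4 was lost without vehicle female 1 (edgeR adjusted p 0.0557), with animals numbered as in striatum. That of Kcnk9 was lost without vehicle female 4 (0.0534) or WT female 1 (0.0516). That of Kcns3 was lost without vehicle male 1 (0.0692) or male 2 (0.056), and without WT female 4 or male 2 (0.0512 each), and that of Kcnmb2 was lost in 12 of the 15 leave-outs, at adjusted p of 0.0533 to 0.085.

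**Figure D4:**
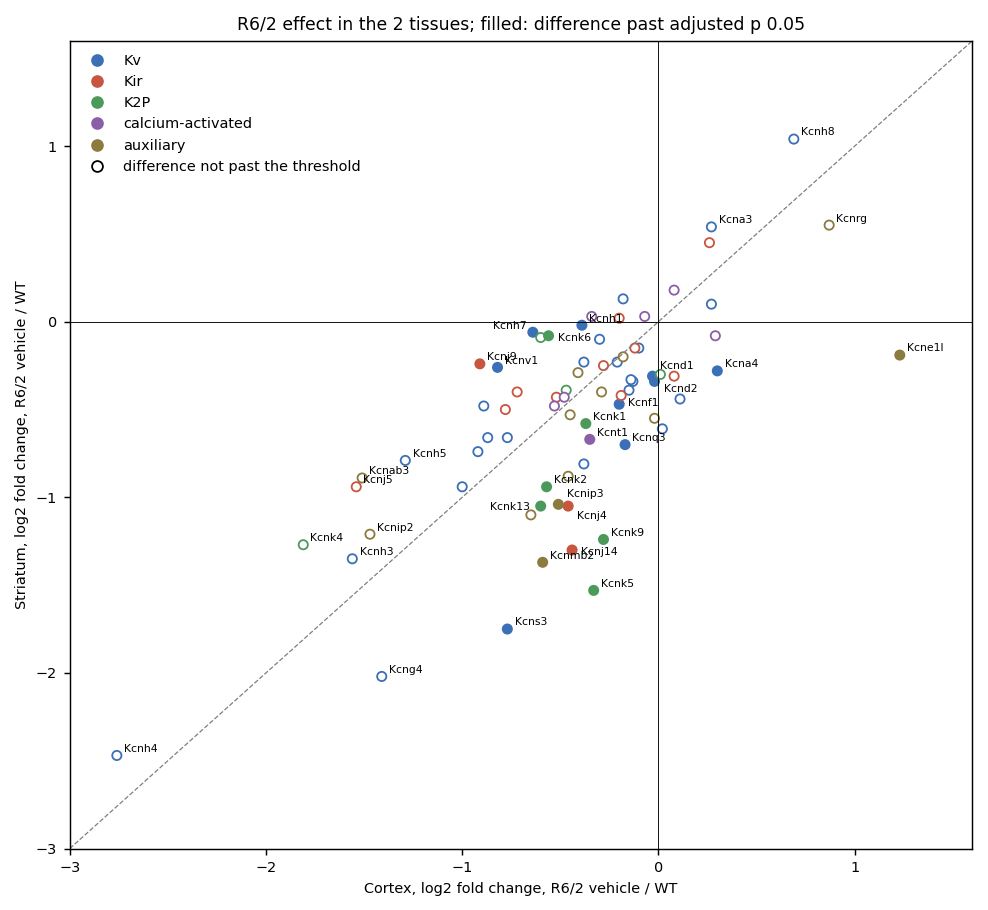
Log2 fold change of R6/2 vehicle over WT in cortex (x axis) and striatum (y axis) for 75 Kcn genes, coloured by class; filled points passed an adjusted p of 0.05 for the difference between tissues and the dashed line marks equal change. Kcne1l lies furthest below the line, and Kcnh4 at the lower left is unfilled.

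CHDI-00340246 changed no channel gene past the threshold against vehicle in R6/2 mice. In edgeR's quasi-likelihood test 0 of 79 were called in either tissue, and 0% of all genes were. At an unadjusted p under 0.05 there were 7 of 79 in striatum (464 of all 17394 genes) and 3 of 79 in cortex (1015 of 17484), and DESeq2 called 0 of the 79. The estimates ran from -0.36 to 0.70 on the log2 scale in striatum and from -0.33 to 0.35 in cortex. The 95% interval lay within -0.5 to 0.5 for 53 of the 79 genes in striatum and for 61 in cortex, and it reached 1 or -1 for 9 and 3 genes. Vehicle and treated libraries overlapped for every one of the 79 genes in both tissues, and did not for 3 of all genes tested in each tissue (0.0172% in each). For Kcnh4 the interval was -0.76 to 0.04 in striatum and -0.49 to 0.38 in cortex, for Kcnh3 -0.52 to 0.24 and 0.03 to 0.46, and for Kcnip2 -0.39 to 0.13 and -0.17 to 0.23.

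The member with the smallest unadjusted p in striatum was Kcnmb2, which ranged from 0.703 to 1.81 CPM with vehicle (median 0.905 CPM) and from 0.988 to 2.75 CPM with the compound (median 1.36 CPM). The groups overlapped, and the estimate was 0.62 with an interval of 0.17 to 1.06 (edgeR adjusted p 1). In cortex it was Kcnk13, from 3.73 to 6.07 CPM with vehicle and from 2.79 to 4.42 CPM with the compound, an estimate of -0.33 with an interval of -0.58 to -0.09 (edgeR adjusted p 0.836). Both groups overlapped there too. The treated striatum of female 4 held the highest value of its group for Kcnj5 (7.64 CPM), Kcnj6 (6.64 CPM), Kcnip1 (40.8 CPM) and Kcnk9 (8.19 CPM), and the interval of each of these genes reached 1.

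**Figure D5:**
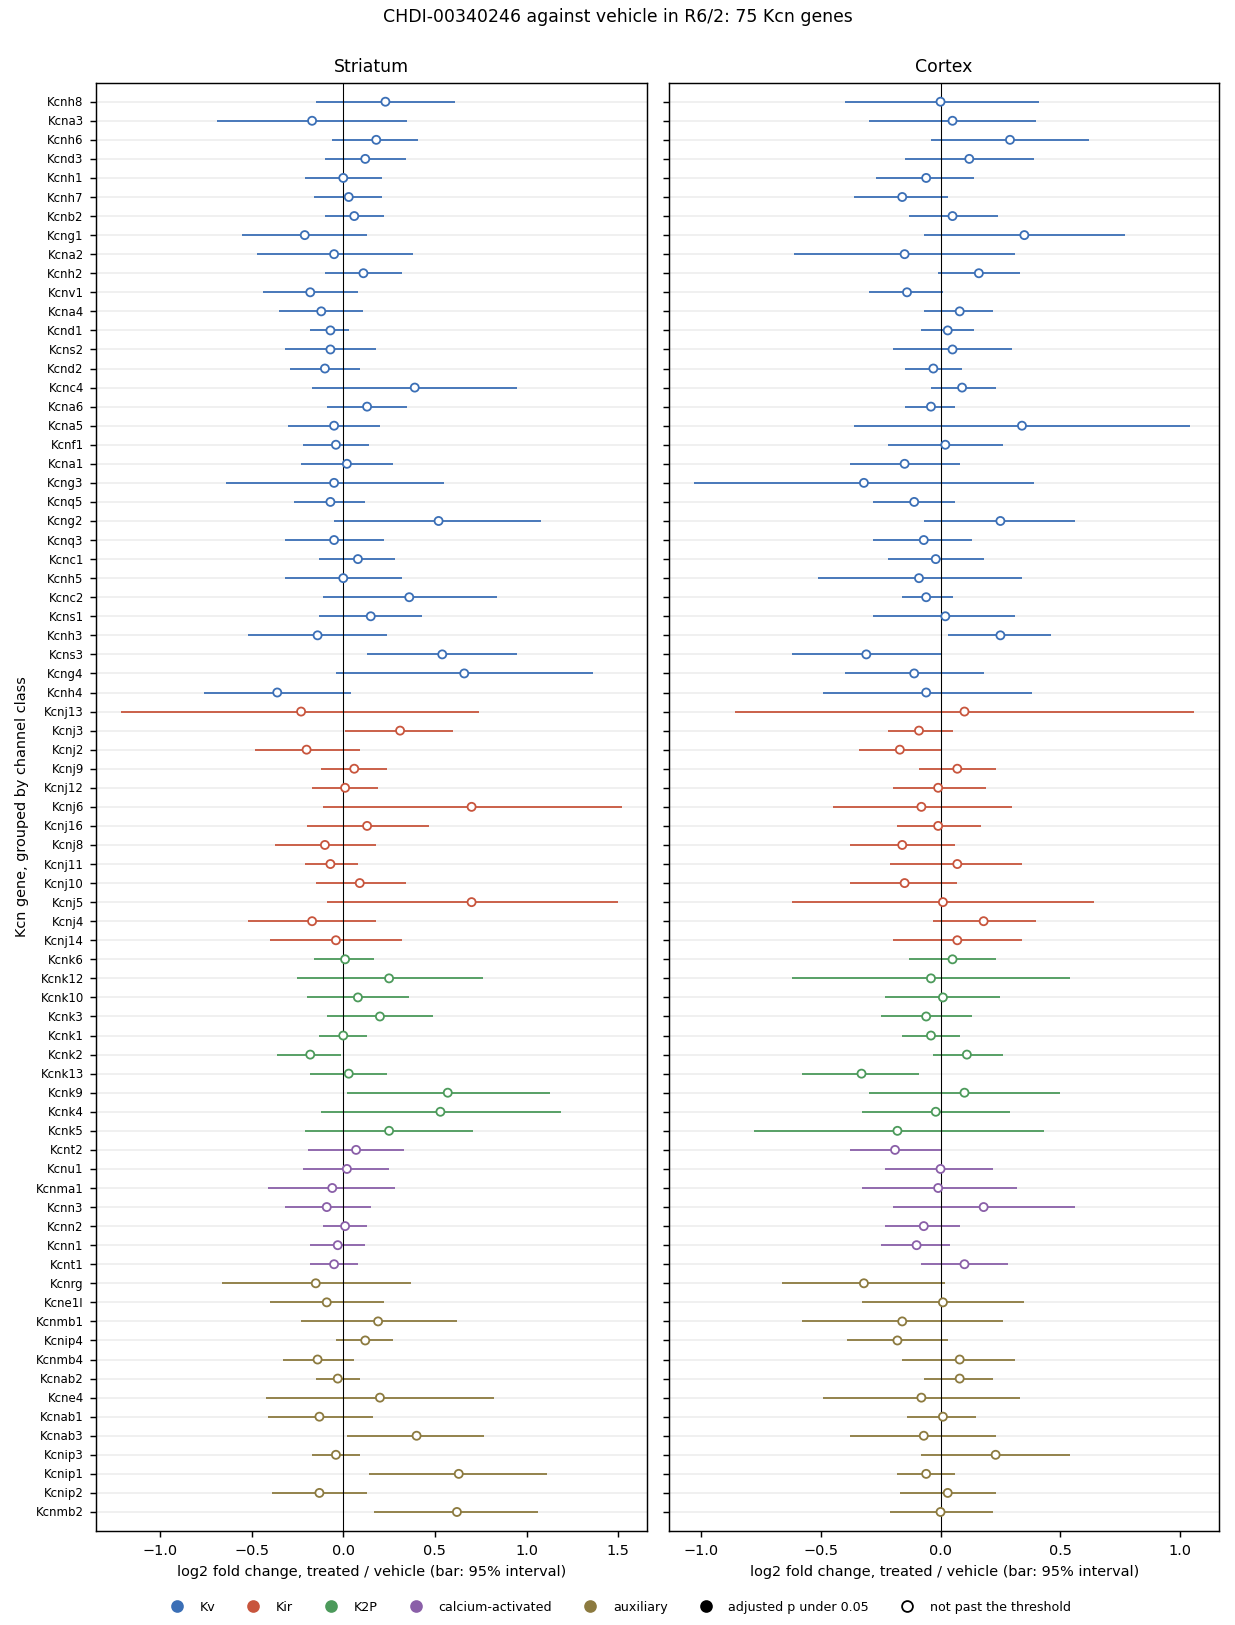
Log2 fold change of CHDI-00340246 over vehicle in R6/2 mice for 75 Kcn genes in striatum and cortex, with 95% intervals, grouped and coloured by class; open points did not pass an adjusted p of 0.05. All points are open, and the estimates lie between -0.36 and 0.70 in striatum and between -0.33 and 0.35 in cortex.

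Against the same WT mice, treated R6/2 mice had 44 channel genes lower and 3 higher in striatum, where 25.2% and 27.8% of all genes were called. The 3 were Kcnh8 (1.28 ± 0.19), Kcnh6 (0.31 ± 0.11, edgeR adjusted p 0.0228) and Kcnj3 (0.32 ± 0.14, edgeR adjusted p 0.0487), the last lost in 10 of the 16 leave-outs. In cortex 47 were lower and 6 higher, against 23.9% and 22.8%. This comparison and that of the vehicle group share their WT libraries, so their values are only set side by side. For Kcnh4 the log2 fold changes with vehicle and with the compound were -2.47 and -2.83 in striatum and -2.76 and -2.82 in cortex. For Kcnip2 they were -1.21 and -1.34 in striatum and -1.47 and -1.44 in cortex. For Kcnk2 they were -0.94 and -1.13, then -0.57 and -0.45, and for Kcnj10 -0.50 and -0.41, then -0.78 and -0.93. Without the treated striatal library of female 4 the lower and higher counts in striatum were 54 and 1. WT and treated mice did not overlap for 21 of the 79 genes in striatum, against 20.3% of all genes, and for 29 in cortex, against 16.9%.

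The R6/2 effect was not called different between the sexes for any channel gene (edgeR, 0 of 79 in either tissue, and 0% of all genes). At an unadjusted p under 0.05 there were 1 of 79 in striatum (773 of all 17394 genes) and 7 of 79 in cortex (1097 of 17484).

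Genes that work with these channels were read from a list of 33, of which 32 were tested. In vehicle R6/2 mice 11 were lower and 4 higher in striatum, with a median log2 fold change of -0.09, and 15 were lower and 2 higher in cortex, with a median of -0.12. Among all genes 24.5% were lower and 25.8% higher in striatum, and 22.6% and 21.5% in cortex. Dlg4, the postsynaptic scaffold that binds Kcna and Kcnj tails, ranged from 786 to 923 CPM in WT and from 495 to 574 CPM in vehicle striatum. It fell by 0.68 in striatum and by 0.47 in cortex. The glial sodium-potassium pump subunit Atp1b2 (-0.60 and -0.48) fell in both tissues, as did Lrrc26, an auxiliary subunit of the large-conductance channel (-0.87 and -1.69). Lrrc26 was scarce, at WT means of 0.832 CPM in striatum and 0.874 CPM in cortex. Of the other tested Lrrc genes, Lrrc38 also fell in both tissues (-0.73 and -0.93). Lrrc55 was not called in striatum (0.10, edgeR adjusted p 0.367) and fell in cortex (-0.67). Of the hyperpolarization-activated channels, Hcn3 rose by 0.52 and 0.64. The compound changed 0 of the 32 in either tissue.

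Some counts are uncertain by annotation. Exons of 25 of the 79 genes overlap exons of another gene, for 23 of them on the opposite strand, and whether the counting used strand is not given in the sources used here. Among genes with large changes these include Kcnk4, which shares 587 bases with Catsperz on the same strand, Kcnab1, Kcnab3, Kcnk2, Kcnj9, Kcnh7 and Kcnq5. Kcnh4, Kcnip2, Kcnh8 and Kcne1l have no such overlap.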

How the data were processed

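RNA sequencing libraries of 23 striata and 23 cortices were read from a table of estimated counts and a table of FPKM values, both deposited by the authors for 43346 genes. CASAVA 1.8.2 and build mm10 are named in the submitters' processing notes. The aligner, quantifier, strand setting and kind of RNA enrichment were not given in the sources used here. Among nonzero estimated counts, 33.8% were not whole (tolerance 1e-06), so reads of similar genes can be split, and they were rounded before testing. Symbols and positions follow GENCODE vM21.

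Each tissue was fitted in R 4.3.3 with edgeR 4.0.16 (quasi-likelihood test, TMM, filterByExpr, group and sex as terms, all 23 libraries). Both tissue contrasts carried the animal as a block. P-values were adjusted by Benjamini-Hochberg over all genes tested, and errors are SE unless SD is named. Alternatives were limma 3.58.1 on log2(FPKM + 0.1) and log2(FPKM + 1), DESeq2 1.42.0, no low-count filter, no sex covariate, run tag as a covariate, a replicate block, leaving out 1 library at a time, leaving out the libraries that stand apart, and a minimum of 5 CPM. Leaving out the libraries that stand apart was added after the data were seen. The scripts were tested on simulated data, and Python 3.11.15 drew the figures.

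The genes, classes and lists were chosen with earlier results of these data known. Genes were named with full statistics when called between vehicle R6/2 and WT at an absolute log2 fold change of at least 0.5, when they had the smallest p for the compound, among the 10 largest tissue differences of the R6/2 effect, highest in a class, nearest the 0.5 CPM minimum, or among the 5 most different between WT tissues each way. Genes behind some small counts of calls, and other genes of a family, were named after their values were seen. Some genes enter the counts and medians but are not reported here by name. Replicates are separate mice, 1 library per tissue and mouse.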

Additional observations from a re-analysis of the deposited data

Results flagged for a closer look

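Within groups of 7 or 8 libraries, single libraries lay far from the others for 45 of the 282 gene and group combinations tested by Dixon's criterion (16%), where chance alone gives about 1 in 20. They gathered in few libraries, and causes were not tested. In the striatum of treated female 4, 17 genes were apart. It was lowest for Kcna4 (28.2 CPM), Kcnab1 (104 CPM), Kcnab2 (173 CPM), Kcnh3 (16.3 CPM), Kcnj4 (25.4 CPM) and Kcnq3 (95 CPM). It was highest for Kcnc1 (138 CPM), Kcnc2 (72.7 CPM), Kcnc4 (46.9 CPM), Kcng2 (2.93 CPM), Kcnip1 (40.8 CPM), Kcnj5 (7.64 CPM), Kcnj6 (6.64 CPM), Kcnj10 (316 CPM), Kcnj16 (25.9 CPM), Kcnk9 (8.19 CPM) and Kcnmb2 (2.75 CPM). In the same library Drd2, a striatal marker, was 19.7 CPM, and the summed striatal projection neuron markers were 835 CPM. Tbr1, 1 of the 8 listed cortical markers, was 13.7 CPM there. The summed cortical markers were 129 to 183 CPM over the treated striatal libraries and 160 to 231 CPM in WT striatum.

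The striatum of vehicle female 1 was highest of its group for Kcnab3 (27.6 CPM), Kcnc2 (62.7 CPM), Kcnc4 (18.9 CPM), Kcnip1 (14.3 CPM), Kcnj5 (1.92 CPM), Kcnmb2 (1.81 CPM) and Kcns3 (2.40 CPM). The striatum of WT male 1 was lowest for Kcna1 (215 CPM), Kcnc1 (115 CPM), Kcnk9 (2.08 CPM) and Kcnn3 (26.2 CPM) and highest for Kcne1l (14.1 CPM). The cortex of WT male 3 was highest for Kcnh4 (41.2 CPM), Kcnj11 (22.1 CPM) and Kcnk4 (20 CPM), and the cortex of vehicle female 3 for Kcna5 (4.68 CPM), Kcnc1 (193 CPM) and Kcnj4 (101 CPM). By the animal codes of the labels, WT male 1 in striatum and WT male 3 in cortex are the same mouse. Vehicle female 1 in striatum and vehicle female 3 in cortex are also the same mouse.

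Other single values apart from their group, all at its high end but the first, were Kcng2 in the striatum of WT male 4 (0.807 CPM), Kcnk4 in that of WT female 2 (2.39 CPM), Kcng4 in that of treated male 2 (6.23 CPM) and Kcnrg in that of treated female 3 (1.25 CPM). Kcnj13 was apart in both tissues of the treated group, each time in male 1 (1.34 CPM in striatum, 2.78 CPM in cortex), which are different mice by the animal codes of the labels. Kcnj10 was 223 CPM in the cortex of vehicle male 1. In treated cortex Kcnc1 was 166 CPM in female 1, and in female 4 Kcnj14 was 2.05 CPM and Kcnt1 was 247 CPM.

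Of the named genes 18 had an R6/2 effect that differed between striatum and cortex by the test of the difference itself. On the log2 scale, striatum minus cortex, the effect was more negative for Kcne1l (-1.41), Kcnk5 (-1.18), Kcnk9 (-1.0), Kcns3 (-0.99), Kcnj14 (-0.88), Kcnmb2 (-0.76), Kcna4 (-0.61), Kcnj4 (-0.61), Kcnip3 (-0.59), Kcnq3 (-0.54), Kcnk13 (-0.46), Kcnk2 (-0.40), Kcnt1 (-0.35) and Kcnk1 (-0.24). It was more positive for Kcnj9 (0.66), Kcnh7 (0.57), Kcnv1 (0.52) and Kcnk6 (0.46).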

How the results depend on the processing

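With no alternative did a named gene reverse its direction. The lower counts stayed within 1.5 times of the main ones throughout: in vehicle R6/2 striatum they ran from 43 to 51 of 79 over the leave-outs, were 36 to 37 on the FPKM scales and 55 without the libraries that stand apart, and in cortex they ran from 44 to 49 and were 38 to 39 on the FPKM scales. The small higher counts moved. In vehicle R6/2 striatum, where 1 gene was higher, the count was 2 without the libraries that stand apart and with the run tag as a covariate, 4 on log2(FPKM + 0.1), with or without its filter, and on log2(FPKM + 1), 0 among genes of at least 5 CPM, and 1 to 3 over the leave-outs. In vehicle R6/2 cortex the 4 higher genes became 2 at 5 CPM. In treated R6/2 striatum the 3 higher genes became 1 without the libraries that stand apart and at 5 CPM, 7 on log2(FPKM + 0.1), 6 without that filter and 6 on log2(FPKM + 1), and 1 to 4 over the leave-outs, with 1 without treated female 4 or WT female 4. On log2(FPKM + 0.1) the median of all genes shifted by 0.116 in that tissue for vehicle R6/2 mice. The cause was not tested.

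Replicate numbers did not pair the mice: deviations of same-numbered libraries correlated at -0.362 to 0.239 between groups. With the replicate block, 46 genes were lower and 1 higher in vehicle R6/2 striatum (Kcnj5, Kcnj9 and Kcnj16 were lost), and 47 and 4 in cortex. With the run tag as a covariate 32 genes were lower in treated R6/2 cortex, where tags and groups do not cross, against 47. For scarce genes such as Kcnk5, Kcnj13, Kcnrg and Kcnh8, near 1 CPM, counting limits what can be seen.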
